A study of Homo sapiens with 9 samples.

Results

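The 9 genes described here encode the transcription factor NRF2 (gene symbol NFE2L2) and 8 of its best known antioxidant target genes, GCLC, GCLM, SLC7A11, TXNRD1, SRXN1, NQO1, HMOX1 and OSGIN1. They were taken by gene symbol from a deposited table of 33861 genes, and each was found as 1 row. The table came from RNA sequencing of HCT116, a human colorectal carcinoma cell line, with ribosomal RNA depleted and with 3 libraries in each of 3 groups. Control cells (labelled NC) were left without either factor. Activin-treated cells were exposed to activin A, a ligand of the TGF-beta family, at 100 ng/mL over 5 days. Activin + HGF-treated cells had the same activin course and after it hepatocyte growth factor (HGF), a ligand of the MET receptor, at 20 ng/mL over a further 5 days. All cells were grown in DMEM with 10% fetal bovine serum. The culture time of the control cells is not given in the sources used here, and HGF was not given without activin. HGF exposure and the 5 further days therefore cannot be told apart. The cells are 1 established line, and the sources do not say whether the 3 libraries of a group came from separate cultures, so every p-value below measures the spread between these libraries, which may be technical.

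NRF2 is made continuously and is held at a low level by KEAP1, which presents it to a CUL3 ubiquitin ligase for degradation. When reactive oxygen species or electrophiles modify cysteines of KEAP1, NRF2 escapes, enters the nucleus, pairs with a small MAF protein and binds antioxidant response elements near its target genes. The targets supply glutathione (SLC7A11, GCLC, GCLM), reduce oxidised protein thiols (TXNRD1, SRXN1), reduce quinones (NQO1) and break down heme (HMOX1). OSGIN1 encodes a growth-inhibiting protein that responds to oxidative stress. Because NRF2 is controlled mainly through protein stability, its mRNA and its activity need not move together, and neither NRF2 protein nor its binding was measured in these libraries.

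The antioxidant response element was looked for in promoter windows of RefSeq, which reach from 250 bases before to 50 bases after each annotated start on GRCh38.p14. Of the 9 genes, 7 had an entry, with 9 windows in all, and SLC7A11 and HMOX1 had none. The letters TGACNNNGC, read on both strands, occurred in 3 of the 9 windows, those of GCLM and TXNRD1, and in 13.3% of all 35116 windows. The looser letters TGANNNNGC, which contain every match of the first motif, occurred in 6 of the 9 windows and in 41.8% of all windows. A match is a description of the letters and no measurement of binding. The 3 stretches of 120 bases that end just before the annotated start are shown for GCLM and TXNRD1, which hold the stricter motif, and for OSGIN1, as an example that holds only the looser letters, with the match to TGANNNNGC in capitals and with each sequence written 5′ to 3′ along the gene's own strand. The match of GCLM (chr1:93909431-93909550, minus strand) and that of OSGIN1 (chr16:83953120-83953239, plus strand) read as the element on the opposite strand, as TGACTAAGC and TGAGTCAGC. The match of TXNRD1 (chr12:104215659-104215778, plus strand) lies on the strand of the gene.
GCLM: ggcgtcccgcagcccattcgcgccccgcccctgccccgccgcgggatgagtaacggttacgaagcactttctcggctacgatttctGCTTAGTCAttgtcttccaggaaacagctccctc
TXNRD1: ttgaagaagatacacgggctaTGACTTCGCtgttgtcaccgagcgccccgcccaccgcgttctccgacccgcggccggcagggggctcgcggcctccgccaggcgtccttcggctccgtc
OSGIN1: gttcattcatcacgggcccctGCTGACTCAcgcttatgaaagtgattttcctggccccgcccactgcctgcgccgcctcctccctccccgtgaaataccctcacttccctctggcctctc
The match in GCLM lies 34 to 26 bases before the start, and those in TXNRD1 and OSGIN1 lie 99 to 91 bases before it. The windows of these genes hold further matches outside the stretches shown. In TXNRD1 another match to the stricter motif, TGACGGAGC on the opposite strand, crosses the start. Matches to the looser letters only cross the start of GCLM and lie 124 to 116 bases before that of OSGIN1. TXNRD1 has another annotated start downstream, whose preceding 120 bases all lie in annotated exons of TXNRD1 transcripts. In these bases, 102 to 94 before that start, the opposite strand reads TGACAAAGC, shown here within 29 bases (chr12:104286920-104286948).
TXNRD1, downstream start: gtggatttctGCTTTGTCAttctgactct
Of the other members with an entry, NQO1 and NFE2L2 held the looser letters, and GCLC and SRXN1 held neither motif in these windows.

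The coordinates in the deposited table match gene positions of the GRCh38 build. NFE2L2 (ENSG00000116044) lies on chromosome 2 from 177227595 to 177287777, GCLC (ENSG00000001084) on chromosome 6 from 53497341 to 53616970, GCLM (ENSG00000023909) on chromosome 1 from 93885199 to 93909456, SLC7A11 (ENSG00000151012) on chromosome 4 from 138164097 to 138242349 and NQO1 (ENSG00000181019) on chromosome 16 from 69706996 to 69726668, all on the minus strand. SRXN1 (ENSG00000271303), also on the minus strand, lies on chromosome 20 from 646615 to 653200. On the plus strand, TXNRD1 (ENSG00000198431) lies on chromosome 12 from 104215779 to 104350307, HMOX1 (ENSG00000100292) on chromosome 22 from 35380361 to 35390293 and OSGIN1 (ENSG00000140961) on chromosome 16 from 83931311 to 83966332. No other gene of the table overlaps GCLM, SRXN1 or HMOX1. TXNRD1 contains RPL18AP3, a ribosomal protein pseudogene on the same strand with up to 13575 counts in a library, so reads of TXNRD1 and of this pseudogene may not be fully separated. OSGIN1 overlaps MLYCD, which had up to 1076 counts, and SLC7A11 overlaps SLC7A11-AS1 on the other strand, which had up to 175 counts.

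Sequencing depth was 57453977 to 77016167 counts per library, and the members had 1165 to 89817 counts per library. Libraries are compared below in CPM, counts divided by a library total that was scaled by TMM, and genes are compared with each other only in FPKM, the authors' value scaled to gene length and library size. Activin replicate 2 differed by more than 1 log2 unit from the mean of the other activin libraries in 19.1% of the 20988 tested genes, and activin + HGF replicate 1 did so in 20.6%, against 6.76% to 13.6% in the other 7 libraries. Several fold changes are therefore also given without 1 or both of these libraries. Of 10 colorectal epithelial markers, 7 reached an FPKM of 1 in at least 1 library, EPCAM and CDH1 among them, and VIL1 stayed below 0.1 everywhere. In bulk libraries, a change in the share of cells that express a gene and a change in RNA per cell cannot be told apart.

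NFE2L2 itself showed no difference between the groups that exceeded the spread between libraries. Its CPM was 35.9, 114 and 124 in control, 131, 81.9 and 146 after activin and 82.8, 106 and 92.2 after activin + HGF. All 3 groups overlapped, and the lowest value of all was that of control replicate 1, which held 2198 counts against 7646 and 9991 in the other control libraries. The group means were 91.3 ± 48.2, 119 ± 33.3 and 93.5 ± 11.5 CPM (SD, n = 3 in each group, as for every mean below). The log2 fold change from edgeR was 0.39 ± 0.39 (standard error) for activin against control and 0.06 without control replicate 1. It was −0.35 ± 0.39 for activin + HGF against activin and 0.04 ± 0.39 for activin + HGF against control, which became −0.39 without control replicate 1.

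**Figure D1:**
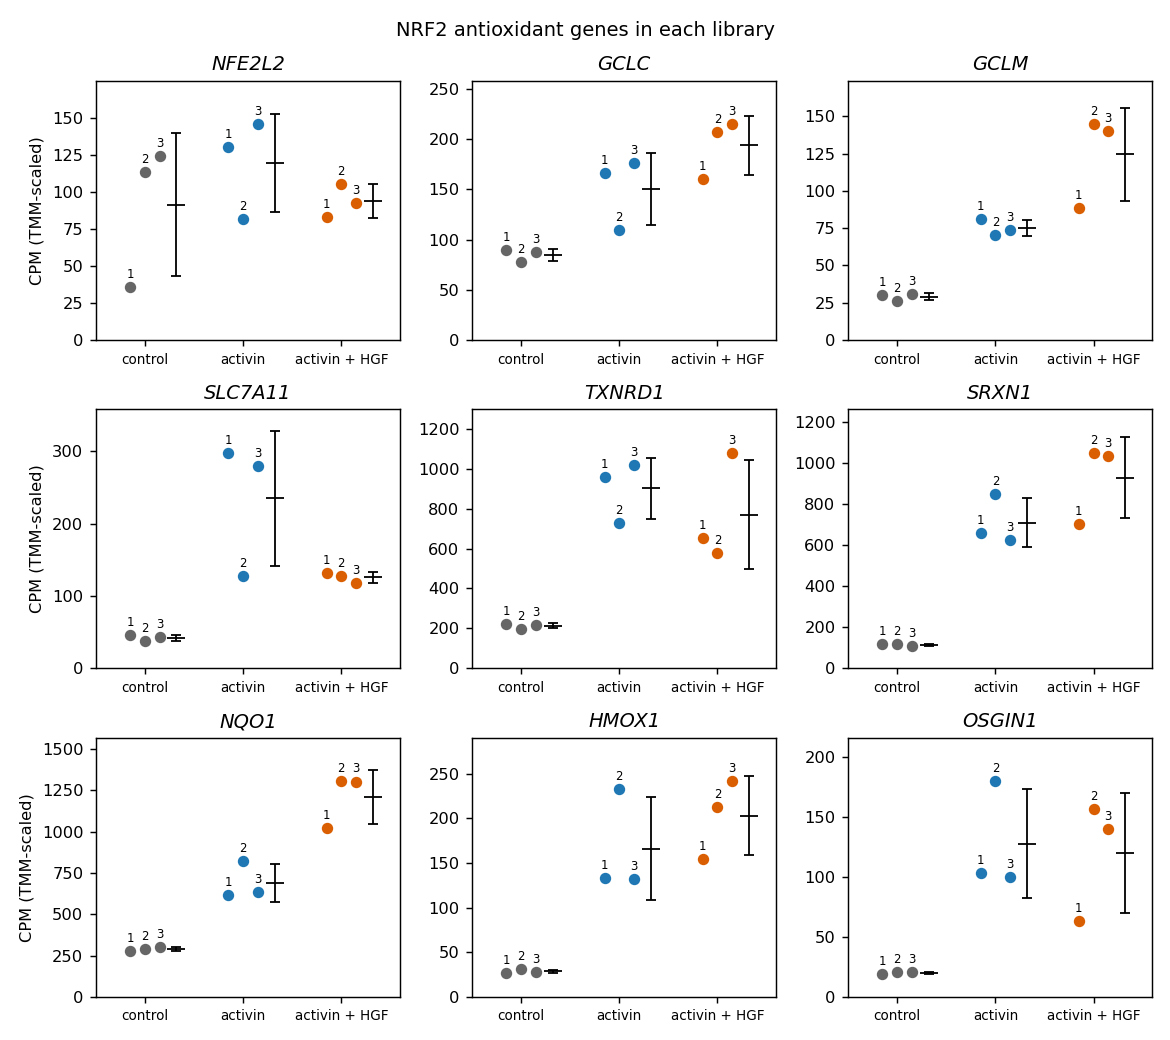
Expression of the 9 genes in each library, as TMM-scaled CPM on linear axes that start at 0. Points are libraries with their replicate numbers, and the line with bars beside each group is the mean ± SD of its 3 libraries. For the 8 target genes all activin and activin + HGF libraries lie above all control libraries, while the groups of NFE2L2 overlap.

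The genes of glutathione supply were higher after activin than in control. SLC7A11 encodes the cystine carrier of system xc-, which brings in the cystine that limits glutathione synthesis. It had 45.8, 38.0 and 43.0 CPM in control, 298, 128 and 279 after activin, and 132, 127 and 118 after activin + HGF. Activin libraries lay above control without overlap, replicate 2 was the lowest of them, and the activin + HGF libraries were at the level of activin replicate 2. SLC7A11 was 5.56-fold higher after activin than in control (log2 2.48 ± 0.29). After activin + HGF its mean was 1.87-fold lower than after activin (log2 −0.90 ± 0.27), and still 2.98-fold above control (log2 1.57 ± 0.28). Without activin replicate 2 and activin + HGF replicate 1 the change from activin to activin + HGF was −1.23. In FPKM the 3 activin + HGF libraries (8.97 to 10.3) lay below the 3 activin libraries (11.3 to 31.1), whereas in CPM they overlapped.

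GCLC and GCLM encode the catalytic and the modifier subunit of glutamate-cysteine ligase, which carries out the rate-limiting step of glutathione synthesis. GCLC had 89.1, 77.8 and 87.5 CPM in control, 166, 109.5 and 176 after activin, and 161, 207 and 215 after activin + HGF. Both treated groups lay above control, and they overlapped with each other. The increase of GCLC was the smallest among the 8 targets after activin, 1.78-fold (log2 0.83 ± 0.21), and 1.02 on the log2 scale without the 2 libraries that stand apart. After activin + HGF GCLC was 2.29-fold above control (log2 1.20 ± 0.21). Between the treated groups GCLC differed by 0.37 ± 0.21, by 0.31 without the 2 libraries and by 0.01 on log2(FPKM + 1). GCLM had 30.1, 26.1 and 30.5 CPM in control, 81.2, 70.4 and 73.5 after activin, and 88.8, 145 and 140.2 after activin + HGF. The 3 groups of GCLM did not overlap in CPM, with activin + HGF replicate 1 close to the activin libraries. In FPKM the treated groups overlapped, from 11.1 to 15.1 after activin and from 10.7 to 20.8 after activin + HGF. GCLM was 2.60-fold higher after activin (log2 1.38 ± 0.20), and 4.31-fold higher after activin + HGF (log2 2.11 ± 0.21), than in control. The change of GCLM from activin to activin + HGF was 0.73 ± 0.20 with TMM scaling, and 0.30 on log2(FPKM + 1). It was 0.88 without the 2 libraries that stand apart.

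The ratio of the 2 subunits differed between control and the treated groups. The FPKM of GCLC divided by that of GCLM was 1.87, 1.87 and 1.80 in the control libraries, 1.29, 0.980 and 1.51 after activin, and 1.14, 0.899 and 0.966 after activin + HGF. All treated libraries lay below all control libraries, and the 2 treated groups overlapped. This ratio does not depend on the scaling of a library. The FPKM of SLC3A2, the heavy chain that partners SLC7A11 in system xc- and other amino acid carriers, divided by that of SLC7A11 was 6.06, 8.79 and 7.09 in control. It was 2.95, 10.2 and 3.16 after activin and 11.6, 11.1 and 10.6 after activin + HGF, so it was above control in every activin + HGF library and spread to both sides of control after activin.

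The genes of the thioredoxin system were also higher in all treated libraries. TXNRD1 encodes the cytosolic thioredoxin reductase, a selenoprotein that keeps thioredoxin reduced with NADPH. It had 222, 199 and 219 CPM in control, 957, 729 and 1020.5 after activin, and 651, 577 and 1081 after activin + HGF. The treated groups did not overlap control but overlapped each other, and activin + HGF replicate 3 was far above the other libraries of its group. TXNRD1 was 4.23-fold higher after activin (log2 2.08 ± 0.25) and 3.61-fold higher after activin + HGF (log2 1.85 ± 0.24) than in control. Between the treated groups the difference was −0.23 ± 0.24, and it ranged from −0.56 to −0.06 as libraries were left out. SRXN1 encodes sulfiredoxin, which repairs overoxidised peroxiredoxins. It had 118, 116 and 109 CPM in control, 656, 846 and 624 after activin, and 702, 1049 and 1033 after activin + HGF. Control was tight and far below both treated groups, which overlapped. SRXN1 was 6.19-fold higher after activin (log2 2.63 ± 0.20) and 8.11-fold higher after activin + HGF (log2 3.02 ± 0.21), the largest increase of the 9 genes in the latter comparison. The difference between the treated groups was 0.39 ± 0.19 in the edgeR values, 0.71 without the 2 libraries that stand apart and 0.00 on log2(FPKM + 1).

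NQO1 and HMOX1 encode the enzymes most often used as readouts of NRF2 activity. NQO1 reduces quinones without passing through reactive semiquinones. It had 279, 289.9 and 299.6 CPM in control, 614, 824 and 632 after activin, and 1020.1, 1306 and 1303 after activin + HGF. The 3 groups did not overlap in CPM. NQO1 was 2.38-fold higher after activin (log2 1.25 ± 0.17) and 4.18-fold higher after activin + HGF (log2 2.06 ± 0.18) than in control. Between the treated groups NQO1 was 1.75-fold higher after activin + HGF (log2 0.81 ± 0.17), and the difference was 1.07 without the 2 libraries that stand apart and 0.43 on log2(FPKM + 1). In FPKM the treated groups of NQO1 overlapped, from 208 to 237 after activin and from 225 to 343 after activin + HGF.

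HMOX1 encodes heme oxygenase 1, which breaks heme down to biliverdin, carbon monoxide and iron. Its CPM was 26.7, 30.8 and 28.2 in control, 134, 232 and 132 after activin, and 154, 213 and 242 after activin + HGF. Activin replicate 2 was as high as the upper activin + HGF libraries, and the treated groups overlapped. HMOX1 was 5.82-fold higher after activin (log2 2.54 ± 0.26) and 7.11-fold higher after activin + HGF (log2 2.83 ± 0.27) than in control. The difference between the treated groups was 0.29 ± 0.25 with TMM scaling and −0.06 on log2(FPKM + 1), so its direction depended on the scaling. It was 0.61 without activin replicate 2 and 0.78 without activin + HGF replicate 1 as well. OSGIN1 had the lowest FPKM of the 9 genes in control. Its CPM was 19.0, 20.7 and 20.7 in control, 103, 180.0 and 100.0 after activin, and 63.3, 157 and 139.9 after activin + HGF. It was 6.34-fold higher after activin (log2 2.66 ± 0.35) and 5.96-fold higher after activin + HGF (log2 2.58 ± 0.35). Without activin replicate 2 the fold change after activin was 2.33 for OSGIN1, 2.48 for SRXN1 and 2.77 for SLC7A11 on the log2 scale, so the order of these genes depended on that library. Between the treated groups OSGIN1 differed by −0.09 ± 0.33, and by 0.55 without the 2 libraries that stand apart.

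**Figure D2:**
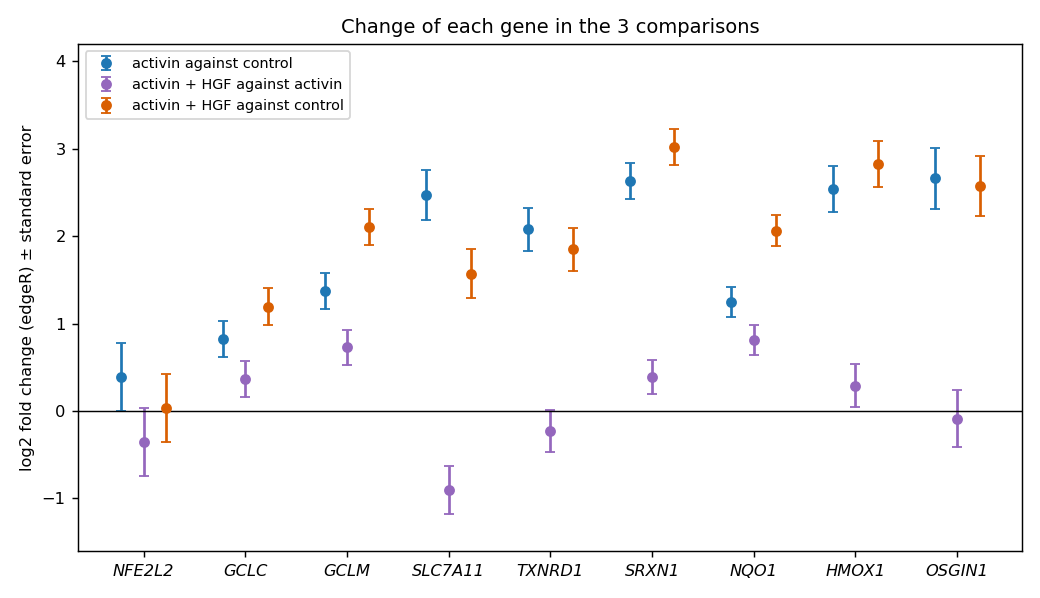
Log2 fold change of each gene from edgeR, with standard errors, for the 3 comparisons. The target genes sit between 0.83 and 3.02 in both comparisons with control, while activin + HGF against activin runs from −0.90 for SLC7A11 to 0.81 for NQO1.

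The 9 genes were chosen by their expression changes between these same groups, as earlier results of these libraries showed them, so the following counts describe them and test nothing. A gene counted as called when its adjusted p (Benjamini-Hochberg) was under 0.05 and its log2 fold change was at least 1 in either direction. For activin against control 7 of 9 members were called, all higher, beside 6.78% called higher and 4.62% called lower among the 20988 tested genes. GCLC and NFE2L2 were not called, and GCLC was called when activin replicate 2 was left out. Activin libraries lay above control libraries in CPM for 8 of 9 members, against 20.9% of tested genes. The members had a median log2 fold change of 2.08, and all tested genes had one of 0.02. For activin + HGF against activin 0 of 9 members were called by edgeR, where 3.87% of tested genes were called higher and 4.21% lower. DESeq2 also called 0, whereas both limma fits called 1, SLC7A11 lower, and edgeR with no minimum fold change called 2, GCLM and NQO1 higher. At an unadjusted p under 0.05, edgeR counted 2 of the 9 higher and 1 lower, where 15.7% of tested genes were higher and 14.4% lower. DESeq2 counted the same 3 genes, and limma on log2(FPKM + 1) counted 1 higher and 2 lower, where 9.75% of its tested genes were higher and 29.5% lower. In CPM 2 members, GCLM and NQO1, were higher without overlap, against 17.2% of tested genes, and the median of the members was 0.29, against −0.04 for all tested genes. Leaving out activin replicate 2 gave 1 call, SLC7A11 lower, and leaving out activin + HGF replicate 1 as well gave 2 calls, SLC7A11 lower and NQO1 higher. For activin + HGF against control 8 of 9 members were called higher, where 11.3% of tested genes were, and the same 8 lay above control without overlap, against 25.7% of tested genes. Their median was 2.06, against −0.03 for all tested genes. With library totals in place of TMM scaling the median of all tested genes moved by −0.34 for activin + HGF against activin and by −0.27 for activin + HGF against control. SLC7A11 was then called lower in the former, GCLC was no longer called in the latter, and the difference of HMOX1 between the treated groups was −0.01. The 2 comparisons with control share the control libraries, and the 2 comparisons with activin share the activin libraries.

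In FPKM, the scale on which genes can be compared per length, the order of the members changed with treatment. In control NQO1 was highest with 87.5 ± 2.53 FPKM, followed by SRXN1 with 40.6 ± 2.21 and TXNRD1 with 28.5 ± 2.24. NFE2L2 (14.3 ± 7.45), HMOX1 (11.1 ± 0.545) and GCLC (8.83 ± 0.825) came next, and the libraries of NFE2L2 spanned those of HMOX1 and GCLC. GCLM (4.78 ± 0.489) and SLC7A11 (3.94 ± 0.462) overlapped, and OSGIN1 was lowest with 3.24 ± 0.0961. After activin SRXN1 (264 ± 21.0) was above NQO1 (219 ± 16.1) without overlap, TXNRD1 reached 129 ± 31.5 and HMOX1 67.3 ± 16.6. Among the other 5 genes, SLC7A11, OSGIN1, NFE2L2, GCLC and GCLM, neighbouring levels overlapped, with means from 13.2 to 23.7. After activin + HGF NQO1 (300.3 ± 65.4) and SRXN1 (272 ± 78.2) overlapped, as did TXNRD1 (84.3 ± 32.9) and HMOX1 (65.3 ± 18.9). SLC7A11 had the lowest mean in this group with 9.52 ± 0.689, below the libraries of GCLM and GCLC and overlapping those of NFE2L2 and OSGIN1. Summed over the 9 genes, the CPM was 866, 912 and 961 in control, 3139.7, 3201 and 3183 after activin and 3055, 3886 and 4365 after activin + HGF, so the activin libraries were close to each other in sum although single members differed.

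Within a group the members did not vary as a single block. After the group mean was taken out of log2(CPM + 0.1), the deviations of SRXN1, NQO1, HMOX1 and OSGIN1 over the 9 libraries had Pearson correlations from 0.894 to 0.972 in their 6 pairs. These 4 genes were grouped by these same correlations, so the range describes them and tests nothing. GCLM fell between, with correlations from 0.311 to 0.657 with the 4 genes and of 0.663 with GCLC. SLC7A11 had correlations from −0.871 to −0.614 with those 4 genes and of 0.789 with GCLC. In activin replicate 2, SRXN1 and NQO1 lay 0.27 above their group means on the log2 scale, HMOX1 0.54 and OSGIN1 0.55. SLC7A11 was at −0.78, GCLC at −0.43 and NFE2L2 at −0.50 in that library. Activin + HGF replicate 1 was low for OSGIN1 (−0.82), GCLM (−0.45), SRXN1 (−0.38), HMOX1 (−0.37) and NQO1 (−0.24). It was near its group mean for SLC7A11 (0.07). The correlations were not computed without these libraries. These are descriptions over 9 points that share libraries and scaling, and with the group means taken out fewer than 9 of them vary freely. The same 2 libraries stood apart over all genes, and the part this has in the pattern was not tested.

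**Figure D3:**
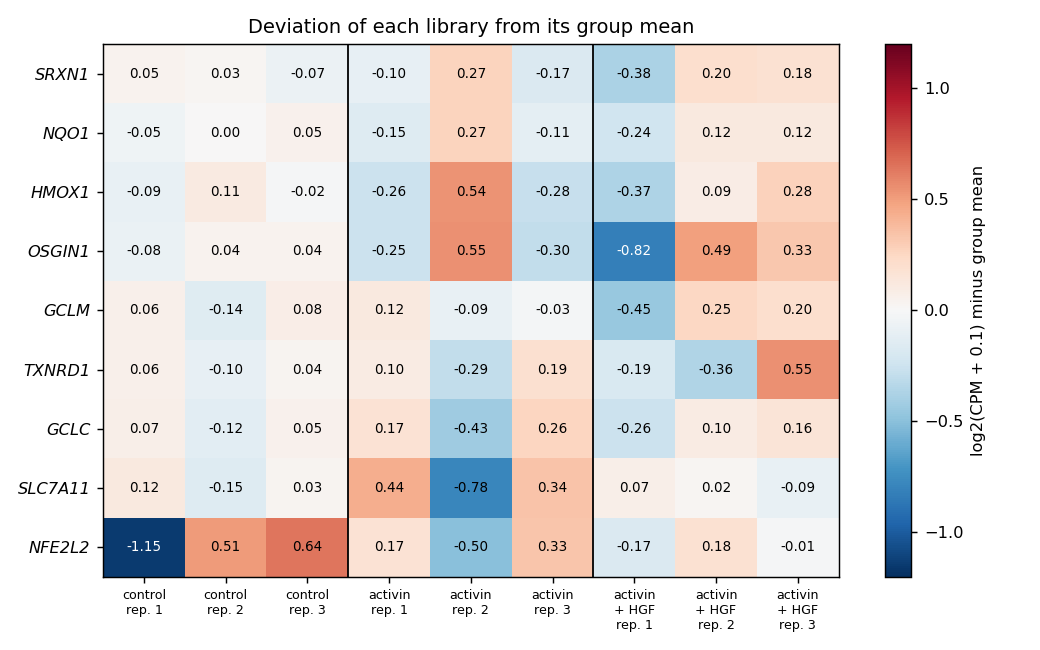
Deviation of each library from the mean of its group, as log2(CPM + 0.1), for the 9 genes (rows) and 9 libraries (columns, with black lines between groups). Activin replicate 2 is above its group for SRXN1, NQO1, HMOX1 and OSGIN1 and below it for TXNRD1, GCLC, SLC7A11 and NFE2L2, and the most extreme cell is NFE2L2 in control replicate 1 at −1.15.

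Over the 9 libraries with the group differences kept, log2 CPM of the 8 targets correlated with each other with a median r of 0.896 over 28 pairs (range 0.644 to 0.994), and NFE2L2 with the 8 targets with a median r of 0.280. By rank (Spearman) the medians were lower, 0.708 over the 28 pairs (lowest 0.383) and 0.017 for NFE2L2 with the targets. The libraries form 3 groups, and with the group means taken out the median Pearson r over the same 28 pairs was 0.324. Among 12193 other tested genes with a mean FPKM of at least 1 in some group, those with the pattern most like the mean of the 8 targets were RAB10 (r = 0.998) and CHMP1B (r = 0.991). HMOX1 was most like SQSTM1, which encodes the p62 protein that binds KEAP1, with r = 0.996. SRXN1 was most like FUT1 and WNT9A, NQO1 like DUSP4 and WNT7B, and OSGIN1 like ZHX2 and DOP1B, with r from 0.993 to 0.996. GCLM was most like CDKN2B and NTN4, GCLC like OSTM1 and ARF6, TXNRD1 like YIPF4 and HSPA13, and SLC7A11 like SEL1L and ARFGEF3, with r from 0.974 to 0.989. NFE2L2 was most like ZNF251 and TBC1D3E, with r of 0.945 and 0.932. In the KEGG terms of the deposited table, 4 members (GCLC, GCLM, SLC7A11, HMOX1) belong to Ferroptosis, a term with 37 tested genes, and 2 members (GCLC, GCLM) to Glutathione metabolism, a term with 43.

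Other genes were taken as 9 lists of the pathway and of processes next to it, with 154 genes, written from general knowledge of the pathway and not from their values here, though with earlier results of these data known. Of these 147 were tested. Of the 147, 31 were called higher and 5 lower for activin against control, 8 higher and 1 lower for activin + HGF against activin, and 32 higher and 7 lower for activin + HGF against control. These are 24.5%, 6.12% and 26.5%, where 11.4%, 8.09% and 21.5% of all tested genes were called. The lists include 14 genes of ATF4, a factor outside the NRF2 pathway, namely ATF4 itself and targets of it. Without them the shares of the other 133 genes were 19.5%, 6.77% and 21.1%. These 133 still hold genes that ATF4 also controls, such as TRIB3, so the shares do not separate ATF4 from NRF2. When libraries were left out singly, 29 of the 36 calls, 2 of the 9 and 33 of the 39 held every time. All adjusted p-values below are from edgeR's quasi-likelihood test over all 20988 genes.

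Among 15 regulators of NRF2, 6 were called higher and 0 lower after activin, with a median log2 fold change of 0.09. That is 40% of the list, beside 11.4% of all tested genes. The small MAF proteins are the partners with which NRF2 binds DNA. MAFF rose from 2.46, 2.61 and 2.37 FPKM in control to 11.4, 15.7 and 11.5 after activin (log2 2.31 ± 0.50, adjusted p = 0.0099, edgeR) and MAFK from 6.04, 2.28 and 6.46 to 20.6, 27.4 and 18.7 (log2 2.12 ± 0.41, adjusted p = 0.0063, edgeR). MAFG was called as well (log2 1.19 ± 0.33, adjusted p = 0.031, edgeR), but not when control replicate 1, 2 or 3 or activin replicate 1 or 2 was left out, with adjusted p from 0.053 to 0.093. SQSTM1 rose from 46.4, 48.8 and 46.8 FPKM to 159, 233 and 164 (log2 1.91 ± 0.23, adjusted p = 0.00048, edgeR), and NFE2L1, a relative of NRF2 that drives proteasome genes, also rose (log2 1.32 ± 0.19, adjusted p = 0.0012, edgeR). BACH2, a repressor that competes for small MAF proteins, was called at under 1.1 FPKM in every library. KEAP1 did not pass the test in any comparison, with 26.1, 24.9 and 21.0 FPKM in control, 16.8, 20.9 and 15.3 after activin and 7.19, 16.5 and 18.9 after activin + HGF. The repressor BACH1 was not called after activin either, with a log2 fold change of 0.58 ± 0.37. The ligase subunit CUL3 was lower after activin (log2 −0.60 ± 0.17, adjusted p = 0.034, edgeR), and it was not called because it fell short of the fold threshold.

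In activin + HGF against activin, 1 of the 15 regulators was called, 6.67%, beside 8.09% of all tested genes. MAFF was higher (log2 2.03 ± 0.49, adjusted p = 0.026, edgeR), with 73.6, 21.8 and 21.3 FPKM, so that replicate 1 stood far above the other libraries. The call was lost without activin replicate 1 (adjusted p = 0.110, edgeR) and without activin replicate 3 (adjusted p = 0.102, edgeR). Against control, 40% of the regulators were called after activin + HGF, beside 21.5% of all tested genes. Those called higher were the 5 genes MAFF, MAFG, MAFK, SQSTM1 and BACH2. PALB2, a DNA repair protein that can bind KEAP1, was called lower (log2 −2.24 ± 0.59, adjusted p = 0.016, edgeR), from 4.43, 3.63 and 4.19 FPKM to 0.13, 0.98 and 1.08. NFE2L1 was called in neither comparison of activin + HGF.

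**Figure D4:**
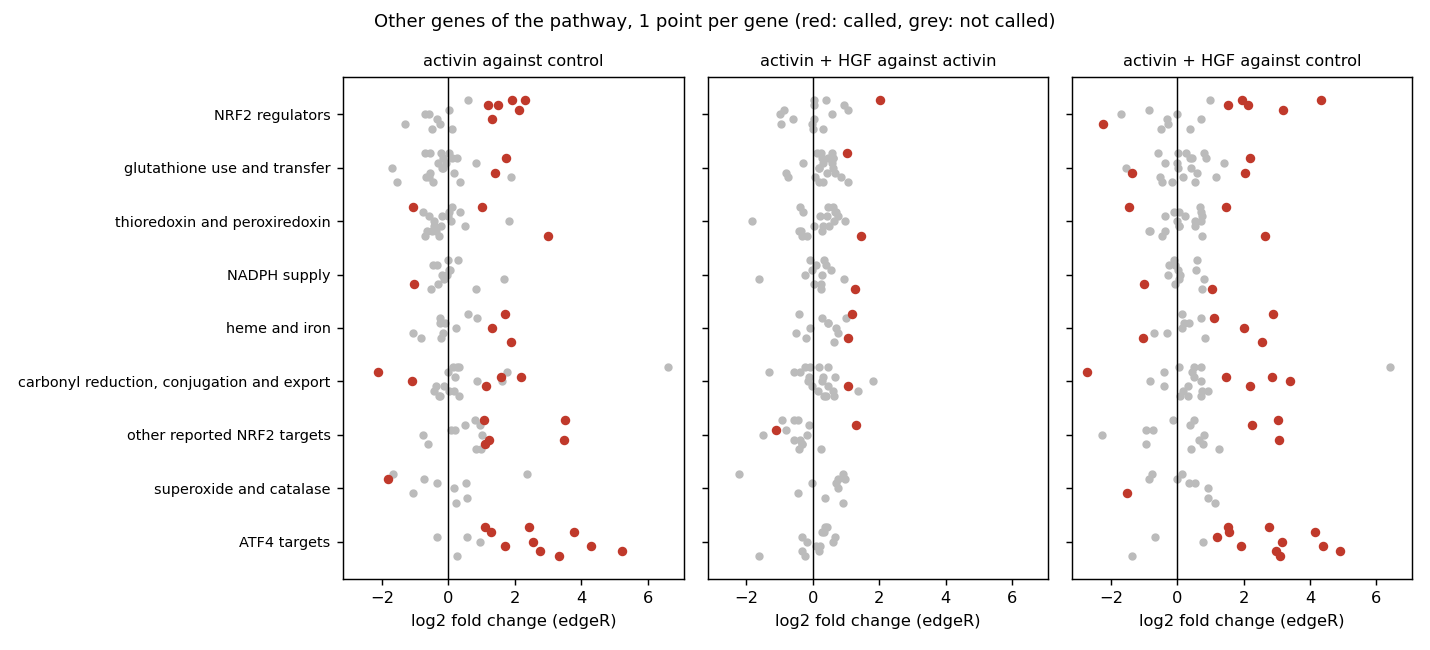
Log2 fold change from edgeR of each tested gene of the 9 pathway lists in the 3 comparisons, with called genes in red and other genes in grey. In activin against control all red points lie above 0 for NRF2 regulators, glutathione use, heme and iron, other reported targets and ATF4 targets. The panel of activin + HGF against activin holds 9 red points over all lists. The grey point beyond 6 in both comparisons with control is a gene listed at 0 FPKM in all control libraries, so its position is not a measure of size.

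Other genes of glutathione use were mostly not called. Of 23 tested genes 2 were called higher after activin and 0 lower, with a median of −0.17. The share called was 8.7%, beside 11.4% of all tested genes. GPX1, a selenium-dependent glutathione peroxidase, rose from 17.0, 20.6 and 17.0 FPKM to 65.1, 47.7 and 38.7 (log2 1.39 ± 0.29, adjusted p = 0.0090, edgeR). SLC3A2, the partner chain of SLC7A11, rose from 26.5, 30.3 and 28.3 to 91.7, 116 and 90.7 FPKM (log2 1.75 ± 0.19, adjusted p = 0.00033, edgeR). The reductase GSR, which regenerates glutathione and is a common NRF2 target, had log2 fold changes of 0.26 ± 0.23 after activin and 0.88 ± 0.23 after activin + HGF against control, neither called. GPX4, which removes lipid peroxides, was called higher in activin + HGF against activin (log2 1.02 ± 0.25, adjusted p = 0.029, edgeR). That call was lost without activin replicate 1 or 3 or activin + HGF replicate 1, with adjusted p from 0.080 to 0.12. It was 1 of 23 called in that comparison, and in activin + HGF against control 2 were called higher and 1 lower. These are 4.35% and 13%, beside 8.09% and 21.5% of all tested genes.

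Of 21 thioredoxin and peroxiredoxin genes, 2 were called higher and 1 lower after activin, 14.3%, beside 11.4% of all tested genes. SESN2, a stress-induced regulator of nutrient signalling, rose most (log2 2.99 ± 0.23, adjusted p = 4.2e-05, edgeR), from 5.76, 5.28 and 5.03 FPKM to 38.3, 56.1 and 37.7. TXN, the thioredoxin that TXNRD1 reduces, was not called in any comparison, with log2 fold changes of 0.00 ± 0.16 after activin and 0.70 ± 0.16 after activin + HGF against control. PRDX2 was called lower (log2 −1.07 ± 0.26, adjusted p = 0.017, edgeR), a call lost without control replicate 2 or 3 or activin replicate 1 or 3, with adjusted p from 0.0505 to 0.0653. The peroxidase PRDX1 was the called gene of this list in activin + HGF against activin (log2 1.45 ± 0.18, adjusted p = 0.0031, edgeR). It had 682, 641 and 657 FPKM in control, 413, 401 and 477 after activin, and 1025, 783 and 864 after activin + HGF, and its reads may be shared with processed pseudogenes. In activin + HGF against control 2 genes of the list were called higher, SESN2 and GLRX, and PRDX2 was called lower. The list had 4.76% called against activin and 14.3% against control, beside 8.09% and 21.5% of all tested genes.

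NADPH, the reductant of TXNRD1, NQO1 and GSR, is supplied largely by the pentose phosphate pathway. Of 14 tested genes of NADPH supply 0 were called higher and 1 lower after activin, MTHFD1 (log2 −1.03 ± 0.15, adjusted p = 0.0013, edgeR), whose fold change was −0.93 without control replicate 2 and −0.97 without activin replicate 1 or 3, short of the fold threshold. ME1 and PGD, often counted among NRF2 targets, were not called, with log2 fold changes after activin of 0.01 ± 0.14 and −0.47 ± 0.20. TKT, a transketolase of the same pathway, was called in activin + HGF against activin (log2 1.26 ± 0.22, adjusted p = 0.0089, edgeR), 1 of 14. In activin + HGF against control 1 gene was called higher and 1 lower. After activin 7.14% of this list was called, beside 11.4% of all tested genes. Activin + HGF had 7.14% called against activin and 14.3% against control, beside 8.09% and 21.5% of all tested genes.

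Heme and iron genes followed HMOX1 in part. After activin 3 of 13 were called higher and 0 lower, 23.1%, beside 11.4% of all tested genes. The ferritin chains, which store the iron that HMOX1 releases, rose from 862, 575 and 649 to 2402, 3265 and 2392 FPKM for FTH1 (log2 1.90 ± 0.22, adjusted p = 0.00041, edgeR) and from 1030.2, 1208 and 1065 to 3269, 4788 and 3157 for FTL (log2 1.71 ± 0.25, adjusted p = 0.0014, edgeR). Both have many processed pseudogenes, and how shared reads were counted is not given in the sources used here. FTL reached 7597, 6297 and 5894 FPKM after activin + HGF, a further increase over activin (log2 1.19 ± 0.25, adjusted p = 0.015, edgeR). It fell short of a call without activin replicate 1 or 3 or activin + HGF replicate 1. The log2 fold changes of FTL were then 0.98 to 0.99, with adjusted p from 0.041 to 0.071 (edgeR). TFRC, the transferrin receptor, was called in the same comparison (log2 1.07 ± 0.27, adjusted p = 0.031, edgeR). That call was lost without activin replicate 1, 2 or 3 or activin + HGF replicate 1. The log2 fold changes of TFRC were then 0.78 to 1.13, with adjusted p from 0.035 to 0.093 (edgeR). Of the 13 genes 2 were called higher and 0 lower in that comparison, and 4 higher and 1 lower in activin + HGF against control. These are 15.4% and 38.5%, beside 8.09% and 21.5% of all tested genes.

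Genes of carbonyl reduction, conjugation and export moved in both directions. Of 22 tested, 3 were called higher and 2 lower after activin, 22.7%, beside 11.4% of all tested genes. ABCC3, an exporter of conjugates, rose from 3.64, 3.36 and 3.56 to 12.0, 11.3 and 10.1 FPKM (log2 1.58 ± 0.16, adjusted p = 0.00019, edgeR). ABCC2, an exporter of glutathione conjugates that is often listed as an NRF2 target, fell from 56.2, 39.7 and 54.0 to 14.8, 7.19 and 14.8 FPKM (log2 −2.13 ± 0.24, adjusted p = 0.00038, edgeR). After activin + HGF ABCC2 was at 4.80, 7.26 and 6.75 FPKM. AKR1C3, an aldo-keto reductase, was called after activin but stayed under 2.8 FPKM in every library, and its paralogs AKR1C1, AKR1C2 and AKR1B10 had group means under 0.5 FPKM. Of the 22 genes, 1 was called in activin + HGF against activin, AKR1C3 (log2 1.06 ± 0.23, adjusted p = 0.016, edgeR). That call was lost without activin replicate 1 or 3 or activin + HGF replicate 3. Its log2 fold changes were then 0.92 to 1.02, with adjusted p from 0.049 to 0.077 (edgeR). In activin + HGF against control 4 were called higher and 1 lower. The 22 genes had 4.55% and 22.7% called in these 2 comparisons, beside 8.09% and 21.5% of all tested genes. Among 15 other reported targets, 5 were called higher and 0 lower after activin, 33.3%, beside 11.4% of all tested genes. TRIB3, a pseudokinase that ATF4 and DDIT3 also control, rose from 8.87, 8.65 and 8.31 to 91.5, 121 and 86.6 FPKM (log2 3.47 ± 0.33, adjusted p = 0.00016, edgeR), and CYP4F11 rose from 4.17, 3.75 and 4.10 to 10.8, 8.97 and 9.90 (log2 1.22 ± 0.18, adjusted p = 0.0015, edgeR). Of these 15, 1 was called higher and 1 lower in activin + HGF against activin. In activin + HGF against control 3 were called higher and 0 lower. These are 13.3% and 20%, beside 8.09% and 21.5% of all tested genes.

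SOD1, the cytosolic superoxide dismutase, fell. It had 161, 154 and 159 FPKM in control, 44.2, 49.6 and 47.3 after activin and 63.0, 70.7 and 81.8 after activin + HGF (activin against control, log2 −1.82 ± 0.16, adjusted p = 0.00010, edgeR). Of the 10 tested superoxide and catalase genes it was the 1 called after activin, 10%, beside 11.4% of all tested genes. In activin + HGF against activin limma called 0 of 5, and edgeR and DESeq2 each called 0 of 10. Among all tested genes edgeR called 8.09%. At an unadjusted p under 0.05 edgeR and DESeq2 each counted 4 of 10, where 15.7% of tested genes were higher and 14.4% lower in edgeR. Those 4, all higher and with catalase (CAT) and SOD1 among them, were called by edgeR when no minimum fold change was set. In activin + HGF against control 0 genes were called higher and 1 lower, at under 1 FPKM. That is 10%, beside 21.5% of all tested genes. With the minimum fold change CAT was not called in any comparison. Its log2 fold changes were −0.74 ± 0.20 after activin and 0.01 ± 0.20 after activin + HGF against control. In activin + HGF against activin it was higher and fell short of the fold threshold only.

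SLC7A11 is also a target of ATF4, the factor of the integrated stress response, so ATF4 itself and its targets were listed too. After activin 10 of 14 were called higher and 0 lower, with a median log2 fold change of 2.06. In activin + HGF against control 11 were called higher. These are 71.4% and 78.6%, beside 11.4% and 21.5% of all tested genes. DDIT3, which encodes the stress-induced factor CHOP, rose from 3.0, 3.71 and 3.31 to 116, 152 and 127 FPKM (log2 5.22 ± 0.29, adjusted p = 6.8e-06, edgeR). CHAC1, an enzyme that degrades glutathione, rose from 2.78, 2.93 and 2.79 to 49.3, 71.0 and 52.9 FPKM (log2 4.29 ± 0.48, adjusted p = 0.00033, edgeR). In activin + HGF against activin edgeR and DESeq2 each called 0 of 14, and limma called 0 of 13. Of all tested genes edgeR called 8.09%. At an unadjusted p under 0.05, edgeR and DESeq2 each counted 3 of 14, all higher. Among all tested genes 15.7% were higher and 14.4% lower at that threshold in edgeR, and 10.5% and 11.2% in DESeq2. The part of ATF4 in the values of SLC7A11 was not tested.

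Markers of other cell types moved with the groups in 3 of 4 lists. The summed FPKM of 6 leukocyte markers was 0.77 to 1.65 in control, 5.02 to 9.43 after activin and 6.07 to 7.83 after activin + HGF. Of these 6 only CD68 reached an FPKM of 1, and PTPRC and CD3E stayed below 0.1 in every library. The sum of 6 hepatocyte markers was 2.76 to 3.95 in control, 5.36 to 7.33 after activin and 88.9 to 150.1 after activin + HGF, mainly through AFP, with TTR below 0.1 everywhere. The deposited AFP counts after activin + HGF were 1900, 2700 and 2800, and the ratio of its CPM to its FPKM varied 3.0-fold over the libraries. For each of the 9 members that ratio varied 1.03-fold, as for the median gene. The 5 fibroblast markers in the table summed to 2.62 to 2.69 in control, 4.58 to 6.04 after activin and 2.88 to 3.65 after activin + HGF, mainly through COL1A1, with COL1A2 and DCN below 0.1 everywhere. The 4 endothelial markers summed to at most 0.38. The part of these markers in the values of the 9 members was not tested.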

How the data were processed

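RNA of 9 HCT116 libraries, 3 per group, had been depleted of ribosomal RNA and sequenced in pairs on an Illumina instrument. The submitters' processing notes name cutadapt 1.9, HISAT2 2.0.4 and StringTie 1.3.4d, and the counting program and annotation are not given in the sources used here. The authors deposited a count per gene without normalization, and FPKM values that they had scaled to library size and gene length. Of the deposited counts from 1 to 40, 35.0% were multiples of 4, so they may not be counts of single reads. Groups and replicate numbers came from the labels. The 9 members and the pathway lists were chosen with earlier results of these data known, so members carry no p-value.

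All 33861 genes entered 1 fit in edgeR 4.0.16 (filterByExpr, TMM, glmQLFit and glmQLFTest in R 4.3.3) on 9 libraries with a mean per group and no block, which tested 20988 genes, and p-values were adjusted over all of them by the Benjamini-Hochberg method. Standard errors were approximated from the fold change and the F statistic. The scripts were tested on simulated data first. Replicates of a group differed by more than sampling noise, so none was counted as a duplicate. Replicate numbers did not pair the libraries. Depth was 57453977 to 77016167 counts, and 3 libraries per group limit the precision.

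In each list, the called genes named were the 2 with the largest change in each direction of a comparison at a group mean of at least 1 FPKM, with some left out of the text. Any NRF2 regulator could be named, as could the 2 genes most correlated with each member. GSR, TXN, ME1, PGD, CAT, AKR1C1, AKR1C2 and AKR1B10 fall outside this rule and were named after their values were seen. GSTM1, NNT, CBR1 and SOD3 were below the filter, and GSTM3, NR0B1 and NOX4 were not analysed here. Some listed genes are not reported here and entered no list count, though they stayed in the fit. Alternatives were RLE size factors, library totals, no low-count filter, DESeq2 1.42.0, limma 3.58.1 on log2(FPKM + 1) and log2(FPKM + 0.1), the replicate block, only the groups compared, no minimum fold change, and each library left out in turn. Leaving out activin replicate 2 and activin + HGF replicate 1 together was added after seeing the data. Promoter windows came from RefSeq. Tables were handled with pandas 2.3.3 in Python 3.11.15, and figures were drawn with matplotlib 3.10.9.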

Additional observations from a re-analysis of the deposited data

How the results depend on the processing

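In both comparisons with control the 8 targets kept their direction under every alternative run. Log2 fold changes of the 9 members were compared with the spread between replicate libraries. With libraries left out, singly or activin replicate 2 and activin + HGF replicate 1 together, 185 of 189 values moved by no more. The 4 others were SRXN1, NQO1, HMOX1 and OSGIN1 in activin + HGF against activin without both libraries. Leaving out 1 of 3 libraries shifts a group mean by only part of that library's deviation, so this count is no test of stability. NFE2L2 counted as unmoved although it fell from 0.39 to 0.06 after activin without control replicate 1. Under the other alternatives 180 of 216 values moved by no more than the spread. The 7 members called after activin were 7 or 8 throughout. Against control the 8 called after activin + HGF became 7 under library totals and under limma, which lost GCLC.

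Activin + HGF against activin depended most on the settings. All genes called were 1697 (813 higher), and 2698 without a minimum fold change, 2624 with DESeq2, 699 with limma on log2(FPKM + 1), 677 with only the groups compared and 2124 (319 higher) with library totals. Leaving out libraries gave 606 to 2422, with 606 without activin replicate 1, 866 without activin replicate 3 and 1079 without activin + HGF replicate 1. Pathway list genes called were 9, and 24 without a minimum fold change, 4 with library totals, 3 and 4 with limma at pseudocounts of 1 and 0.1, 2 with only the groups compared, 2 to 17 as libraries were left out and 17 without the 2 libraries that stood apart. For activin against control 2394 genes were called, and 3776 without a minimum fold change, 1199 with limma on log2(FPKM + 1) and 1688 to 2716 as libraries were left out, with 31 to 35 list genes. For activin + HGF against control 4519 were called (2378 higher), 2238 with limma on log2(FPKM + 1), 4785 (1598 higher) with library totals and 3537 to 4488 as libraries were left out, with 37 to 41 list genes, or 67 without a minimum fold change. The cause of these shifts was not tested, except that no minimum fold change admits smaller changes by construction.

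Same-numbered libraries of different groups had deviations with correlations from −0.0606 to 0.0882 over 9 pairs, so the numbers were not taken as pairs. The fit with the replicate block called 2218, 1366 and 4222 genes in the 3 comparisons, 35, 9 and 38 list genes, and 7, 0 and 8 members. Depth did not limit the members, which held at least 1165 counts in every library.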
